A study of Mus musculus with 48 samples.

Results

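The comparison set 24 mice that carried the heterozygous Q140 allele of Htt against 24 that did not, with Msh3 genotype and sex held as covariates, and it used all 48 libraries of the series. The carriers were 8 Q140, 8 Q140 Msh3+/- and 8 Q140 Msh3-/- mice. The non-carriers were 8 wild-type (WT), 8 Msh3+/- and 8 Msh3-/- mice. Each genotype had 4 females and 4 males, all labelled C57BL/6 and 12 months old, and the tissue was cerebral cortex. Q140 is a knock-in of an expanded CAG repeat into the mouse Htt gene, a germline allele present in every cell of the body and not driven by a transgene promoter. Averaging over 3 Msh3 genotypes puts 24 mice in each arm where a single pair of genotypes has 8, which lets smaller differences pass the test.

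Huntington disease is caused by an expanded CAG repeat in the huntingtin gene, and striatum and cortex are the brain regions best known to be affected. Projection neurons of the cortex use glutamate, astrocytes clear it through Slc1a2 and turn it into glutamine with Glul, and the calcium-calmodulin kinase CaMKII is the abundant kinase of their postsynaptic side. Msh3 encodes a subunit of a mismatch repair complex that binds small loops in DNA and is known for promoting the somatic growth of CAG repeats. In bulk tissue, fewer cells of a type and less RNA per cell of that type cannot be told apart, which holds for every cell type marker below.

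Library totals ran from 37.7 to 68.3 M (mega) counts, with a median of 49.6 M in carriers and 47.5 M in non-carriers. Levels are given in CPM, the reads of a gene per M reads counted, after scaling by TMM. Slc17a7, the vesicular glutamate transporter of cortical projection neurons, had a median of 1369 CPM in carriers and 1325 CPM in non-carriers, while Drd1, a dopamine receptor of striatal neurons, had 6.21 and 6.03 CPM. Htt itself was measured at a median of 248 CPM in carriers and 250 CPM in non-carriers, and its log2 fold change of -0.04 ± 0.021 (SE) did not pass the test (edgeR adjusted p = 0.366), so the count does not check the Q140 label. The Msh3 count ran against its labels in both arms. It averaged 21.8, 57.9 and 95.3 CPM in carriers labelled Msh3+/+, Msh3+/- and Msh3-/-, against 22.4, 60.1 and 99.2 CPM in non-carriers with the same labels. The part of Msh3 that was deleted is not stated, and a count over the whole gene does not show which part was read. Msh3 genotype below is therefore the label's. Adjusted for that label, Msh3 had a log2 fold change of -0.05 ± 0.025 between carriers and non-carriers (edgeR adjusted p = 0.305).

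The arms were spread unequally over the 6 columns of the plate that the well addresses name. Column 1 held 7 carriers and 1 non-carrier, column 2 4 and 4, column 3 2 and 6, column 4 3 and 5, and columns 5 and 6 4 and 4 each. A second fit with plate column as a term is therefore given beside the first for the named genes whose call it ends. The 8 plate rows were uneven as well. Row A held 5 carriers and 1 non-carrier, and rows B and C 4 and 2 each. Row E held 3 and 3, and rows D, F, G and H 2 and 4 each. Calls with a row term are counted near the end. Prl and Gh, hormone genes of the pituitary, together passed 5 CPM in WT M2, WT M3 and Msh3+/- M1, and the choroid plexus genes summed to 643 CPM in Msh3+/- M2 with Enpp2 left out, against a median of 9.61 CPM over all libraries. All 4 of these libraries are non-carriers.

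Of 19547 genes tested, 300 (1.53%) were called at an edgeR quasi-likelihood adjusted p under 0.05 (Benjamini-Hochberg), 145 higher and 155 lower in carriers, and 2978 had an unadjusted p under 0.05. With the plate column term 86 (0.44%) were called, 32 higher and 54 lower. All 86 were among the 300. All 300 kept their direction, and so did 17419 of the 19547 genes tested. Leaving out each library in turn gave a median of 263.5 calls. The count was 510 without Q140 Msh3+/- F1, 500 without Msh3-/- F3 and lowest, at 217, without Msh3+/- M2. Msh3-/- F3 was the only non-carrier in plate column 1, so that column held carriers alone without it. Without the 4 libraries with pituitary or choroid plexus transcripts, an alternative added after the data were seen, 230 genes were called, 122 higher and 108 lower. Upper-quartile scaling moved the split to 105 higher and 209 lower, with a median of -0.010 over all genes.

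The differences were small. The median size of a called change was 0.132 on the log2 scale, or 9.57%, the smallest was 0.060, and 83 of the 300 calls were under 0.1 and 227 under 0.2. Only 19 exceeded 0.5 and 8 exceeded 1. Called genes were well expressed, with a median of 38.0 CPM against 11.1 CPM over all tested genes. The arms overlapped for nearly all of them. In 2 called genes, Abhd1 and the gene model Gm2420, every carrier lay above every non-carrier, and in 19 at least 12 of 24 carriers lay beyond the whole range of the non-carriers, against 23 of all 19547 genes tested. In the median called gene, 21 of 24 carriers lay beyond the non-carrier median in the direction of the call, against 15 of 24 in the median tested gene.

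**Figure D1:**
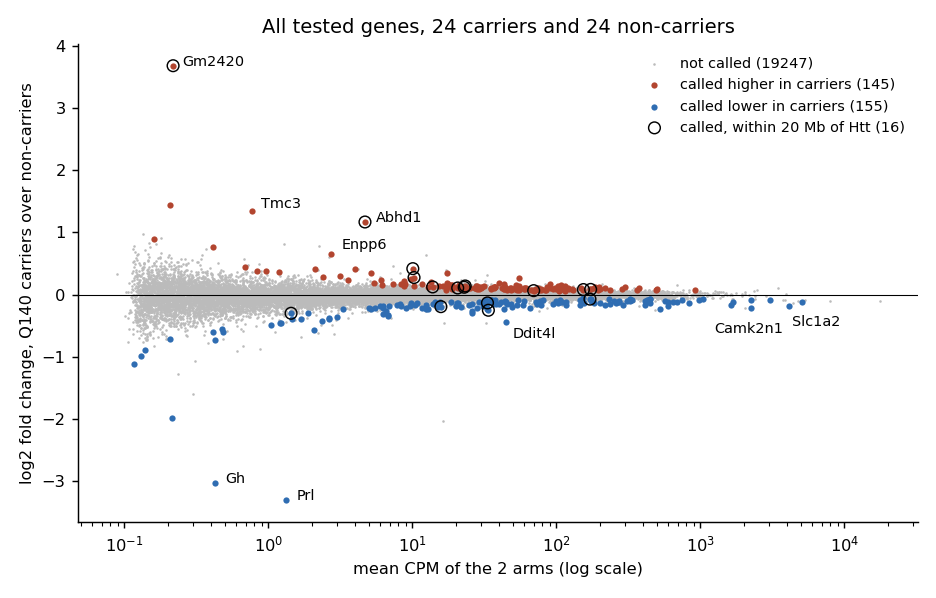
Log2 fold change of carriers over non-carriers (vertical axis) against the mean CPM of both arms (log scale) for 19547 tested genes; red and blue points are the 145 genes called higher and the 155 called lower, and rings mark the 16 called genes within 20 Mb of Htt. Called genes lie in a thin band near 0 at high CPM, where 227 of 300 are under 0.2 in size, and the few large changes are at low CPM.

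Several strong calls lay beside Htt, among them the 2 of smallest adjusted p, Abhd1 and Gm2420. Within 20 Mb of Htt on chromosome 5, 16 of 336 tested genes were called, 11 higher and 5 lower, which is 5.33% of all calls against 1.72% of all tested genes, and each of the 16 lay within 4.69 Mb. Abhd1, a gene of the alpha/beta hydrolase family (GRCm38 chromosome 5, 30950066 to 30955091), had 4.79, 6.52 and 8.16 CPM as lowest, median and highest of the carriers, against 1.97, 2.91 and 3.82 CPM in non-carriers. The 2 ranges did not overlap. Its log2 fold change was 1.17 ± 0.058 (edgeR adjusted p = 1.04e-22). Cgref1, a calcium-binding secreted growth regulator, reached 10.2, 11.4 and 13.4 CPM in carriers, against 5.95, 8.85 and 10.3 CPM in non-carriers, and 23 of 24 carriers lay above every non-carrier (0.42 ± 0.044). Mrpl33, a protein of the large mitochondrial ribosomal subunit, rose by 0.27 ± 0.036. Atraid, known as a gene induced by retinoic acid, fell to 27.6, 31.0 and 33.9 CPM, against 33.1, 36.7 and 42 CPM in non-carriers, with 22 of 24 carriers below every non-carrier (-0.25 ± 0.023, edgeR adjusted p = 1.12e-11). Gm2420, a transcribed pseudogene named here after its values were seen, averaged 0.406 CPM in carriers and 0.0308 CPM in non-carriers.

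Other called genes of the window were Crmp1, a cytosolic phosphoprotein of axon guidance, at 0.08, Ctbp1, a transcriptional corepressor, at 0.08, the pyrimidine synthesis gene Cad at 0.14, the vitamin transporter gene Slc5a6 at 0.12, Zfp513 at 0.11, Drc1 at 0.12 and Nrbp1 at 0.06. Lower were the ciliary genes Evc (-0.19) and Evc2 (-0.13) and Tyms, thymidylate synthase (-0.30). With the plate column term 8 of the 16 stayed called, and those that did not included Ctbp1, Zfp513, Drc1, Nrbp1, Evc, Evc2 and Tyms. The knock-in allele and the chromosome segment around it are inherited together, so an effect of the repeat and one of linked sequence cannot be told apart for these 16 genes. Outside the window 284 genes were called.

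Part of the astrocyte genes fell, by small amounts. Of 30 listed markers, all tested, 12 (40.0%, against 1.53% of all tested genes) were called lower and 0 higher, 28 lay below 0, and the median log2 fold change was -0.071, against -0.001 over all tested genes, of which 49.2% lay above 0. With the plate column term 8 of the 12 stayed called and the list median was -0.090. The summed level of the 30 genes ran from 14804 to 17154 CPM in carriers (median 15770) and from 15186 to 18329 CPM in non-carriers (median 17149). The called genes were Slc1a2, Glul, Slc4a4, Gja1, Sparcl1, S1pr1, Clu, Aldoc, Acsl6, Slc1a3, Ntsr2 and Hepacam, and the calls of Clu, Slc1a3, Ntsr2 and Hepacam ended with the plate column term. Fabp7 (0.11) and Mlc1 (0.00) were the 2 members above 0, and Aqp4, the water channel of astrocyte endfeet, had -0.01 and was not called, and Aldh1l1 had -0.01 and was not called either.

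Slc1a2, the main glutamate transporter of the forebrain (chromosome 2, 102658659 to 102790784), had 3459, 3826 and 4144 CPM as lowest, median and highest of the carriers, against 3714, 4390 and 4867 CPM in non-carriers. The ranges overlapped, but all 24 carriers lay below the non-carrier median, and the log2 fold change was -0.18 ± 0.023 (edgeR adjusted p = 5.68e-07). Glul, which makes glutamine from glutamate (chromosome 1, 153899944 to 153909723), had 1415, 1557 and 1786 CPM in carriers, against 1563, 1733 and 1995 CPM in non-carriers, and 13 carriers lay below every non-carrier (-0.17 ± 0.022, edgeR adjusted p = 1.23e-06). The Glul pseudogene Glns-ps1, with 34.8 against 38.4 CPM, was called lower as well and may share reads with Glul, so it is not separate evidence. Gja1, the gap junction protein connexin 43, fell by 0.14 on the log2 scale, Slc4a4, a sodium bicarbonate cotransporter, by 0.13, S1pr1, a sphingosine phosphate receptor, by 0.13 and Sparcl1, a secreted synaptogenic protein, by 0.09. Aldoc, the astrocytic aldolase, fell by 0.09. Outside the list, Plpp3, a lipid phosphate phosphatase abundant in astrocytes, had 177, 208 and 224 CPM in carriers, against 205, 225 and 255 CPM in non-carriers (-0.16 ± 0.022), and Lgi4, a secreted glial protein, fell by 0.14.

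The promoters of 2 falling astrocyte genes and of Enpp6, an oligodendrocyte lineage gene that rose, are shown as examples of glial genes called in either direction. Each line gives the 250 bases before the transcription start in RefSeq (GRCm38.p6), all on the plus strand, with GGGCGG, the GC box read by Sp1-family factors, in capitals.
Slc1a2, chr2:102706188-102706437: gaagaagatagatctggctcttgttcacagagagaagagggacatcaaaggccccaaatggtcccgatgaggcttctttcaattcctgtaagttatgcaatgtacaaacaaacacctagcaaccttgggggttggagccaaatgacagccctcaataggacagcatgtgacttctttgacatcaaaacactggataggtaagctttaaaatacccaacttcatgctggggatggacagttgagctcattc
Glul, chr1:153899679-153899928: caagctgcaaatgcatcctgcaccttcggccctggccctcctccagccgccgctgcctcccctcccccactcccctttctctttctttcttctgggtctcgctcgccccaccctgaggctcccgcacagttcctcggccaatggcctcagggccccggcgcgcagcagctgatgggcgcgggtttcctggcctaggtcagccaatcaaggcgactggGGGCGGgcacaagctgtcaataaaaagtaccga
Enpp6, chr8:46986637-46986886: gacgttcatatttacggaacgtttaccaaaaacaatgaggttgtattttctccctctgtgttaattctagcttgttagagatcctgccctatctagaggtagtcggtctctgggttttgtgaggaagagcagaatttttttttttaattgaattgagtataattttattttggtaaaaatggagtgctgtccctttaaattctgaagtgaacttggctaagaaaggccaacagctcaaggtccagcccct
The windows were 44.8%, 64.8% and 38.4% G or C. GGGCGG, searched on both strands, occurred in Glul alone and occurs in 56.0% of the 12485 tested genes with a window. The cyclic AMP response element TGACGTCA (2.61% of windows) and the TATA motif TATAAA (6.78%) were found in none of the 3. The Slc1a2 start used by RefSeq lies inside the span that the Ensembl annotation gives the gene. Only 102 of 145 genes called higher and 105 of 155 called lower had a window, 70.3% and 67.7%, too few for a comparison of motif shares between the calls and all genes.

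Among genes of CaMKII and calmodulin signalling, the alpha subunit of CaMKII, its inhibitor Camk2n1 and Camkk2 fell, and the other CaMKII subunits were not called. Of 25 listed genes 4 (16%, against 1.53% of all tested genes) were called lower and 0 higher, while the list median was -0.002. All 4 were also called with the plate column term. Camk2n1, an endogenous inhibitor of CaMKII (chromosome 4, 138454314 to 138460123), had 1721, 2075 and 2362 CPM in carriers, against 2197, 2402 and 2675 CPM in non-carriers, with 17 of 24 carriers below every non-carrier (-0.21 ± 0.025, edgeR adjusted p = 6.79e-08). Camk2a, the alpha subunit, had 4341, 4837 and 5433 CPM in carriers, against 4883, 5409 and 5713 CPM in non-carriers (-0.13 ± 0.019). Camkk2, a kinase that activates other CaM kinases, fell by 0.09. The kinase subunits Camk2b, Camk2d and Camk2g had 0.02, 0.02 and 0.00, none of them called. Whether Camk2a and the other subunits differ in their response was not tested. The postsynaptic genes Sipa1l1, a Rap GTPase-activating protein (-0.12 ± 0.018, all 24 carriers below the non-carrier median), Gsg1l, an auxiliary subunit of AMPA receptors (-0.16 ± 0.027), and Erbin, a scaffold that binds ErbB2 (-0.16 ± 0.026), were also among the 20 strongest lower calls.

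In the oligodendrocyte lineage single genes moved in both directions and the lists as a whole did not. Of 24 genes of precursors and newly formed oligodendrocytes, Enpp6 and Zfp488 were called higher (8.33%, against 1.53% of all tested genes) and 0 lower. Of these 24 genes, 11 lay above 0, and the median was -0.004. Enpp6, a choline phosphodiesterase of newly forming oligodendrocytes (chromosome 8, 46986887 to 47096762), had 2.07, 3.49 and 4.55 CPM in carriers, against 1.26, 2.10 and 2.89 CPM in non-carriers. Of 24 carriers 15 lay above every non-carrier, and the log2 fold change was 0.65 ± 0.081 (edgeR adjusted p = 2.23e-07). Zfp488, a transcription regulator of oligodendrocyte differentiation, had 1.70, 2.71 and 3.21 CPM in carriers, against 1.72, 2.13 and 2.71 CPM in non-carriers (0.28 ± 0.060). Pdgfra (-0.01) and Cspg4 (-0.00), genes of precursors, were not called, and neither were Olig2 (-0.07) and Gpr17 (-0.02) of the same list.

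Of 28 myelin genes 1 was called higher and 3 lower (14.3% called, against 1.53% of all tested genes). Of these 28 genes, 15 lay above 0, and the median was 0.005. Anln, an actin-binding protein of myelin, had 15.2, 18.2 and 27.1 CPM in carriers, against 11.1, 15.1 and 20.6 CPM in non-carriers, and all 24 carriers lay above the non-carrier median (0.35 ± 0.061, edgeR adjusted p = 0.000665). Tspan2, a tetraspanin of oligodendrocytes, had 33.9, 39.9 and 45.9 CPM in carriers, against 36.8, 45.8 and 56.5 CPM in non-carriers (-0.23 ± 0.038). Car2, carbonic anhydrase, and Mal, a myelin proteolipid, fell by 0.13 and 0.22, but neither call held with the plate column term (edgeR adjusted p = 0.0556 and 0.153). The call of Car2 ended without WT F3 or Msh3+/- M2 (edgeR adjusted p at most 0.0543), and Mal was called in 24 of 48 fits that left out 1 library. Mbp, a main protein of myelin (-0.02), was not called.

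**Figure D2:**
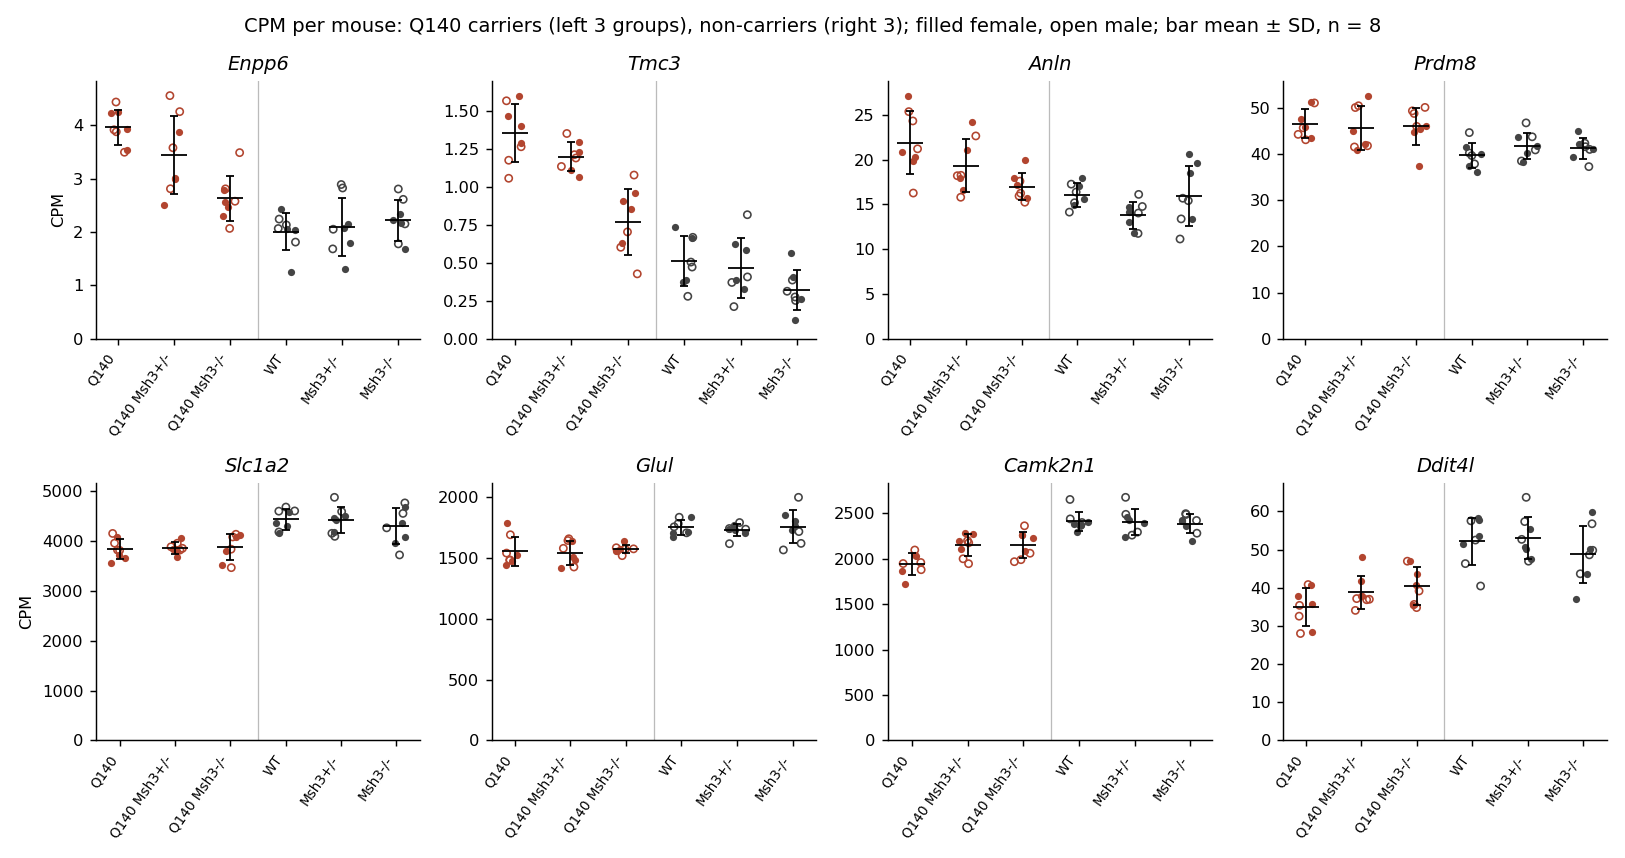
CPM of 8 genes in every mouse by genotype, the 3 carrier genotypes at the left in red and the 3 non-carrier genotypes at the right in grey; filled points are females, open points males, and bars the mean ± SD of 8 mice. Carriers lie higher for Enpp6, Tmc3, Anln and Prdm8 and lower for Slc1a2, Glul, Camk2n1 and Ddit4l, with overlap between mice of the arms in all 8.

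Among the genes on no list or on lists that otherwise stayed flat, Ddit4l, an inhibitor of mTORC1 (chromosome 3, 137621612 to 137628333), had 28.0, 37.4 and 48.2 CPM in carriers, against 37.1, 51.0 and 63.7 CPM in non-carriers. All 24 carriers lay below the non-carrier median and 11 below every non-carrier (-0.43 ± 0.055, edgeR adjusted p = 8.87e-07). Ddit4l was the only call among 34 tested genes of mTOR and stress signalling (2.94%, against 1.53% of all tested genes), whose median was 0.008. Tmc3, a transmembrane channel-like gene (chromosome 7, 83584927 to 83625614), had 0.428, 1.16 and 1.6 CPM in carriers, against 0.124, 0.388 and 0.818 CPM in non-carriers, with 20 carriers above every non-carrier (1.34 ± 0.11, edgeR adjusted p = 8.66e-14). It averaged 1.35, 1.20 and 0.771 CPM in carriers on Msh3+/+, Msh3+/- and Msh3-/-, against 0.512, 0.467 and 0.323 CPM in non-carriers. Prdm8, a transcriptional regulator of cortical neurons, had 37.5, 45.8 and 52.6 CPM in carriers, against 36.1, 40.9 and 46.7 CPM in non-carriers (0.17 ± 0.030, edgeR adjusted p = 0.000606). It lies on chromosome 5, but more than 20 Mb from Htt.

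Other strong higher calls outside the window were Acot7, an acyl-CoA thioesterase of neurons (194 against 179 CPM, 0.12), Chdh, choline dehydrogenase (0.41), the solute carrier gene Slc45a3 (0.528 against 0.303 CPM, 0.77), Rem2, a GTPase that inhibits calcium channels (0.42), the cation channel gene Trpv2 (0.16), Nyap1, an adaptor for phosphoinositide 3-kinase in neurons (0.11), the transporter gene Abca8a (0.26), Marcks, an actin-binding substrate of protein kinase C (0.13), and Fam53c (0.10). Tmcc2 (0.12) and Flii, an actin-remodelling gene (0.08), were called too, but not with the plate column term (edgeR adjusted p = 0.097 and 0.0594). For Flii, 16 of 24 carriers lay above every non-carrier. Other strong lower calls were Slc4a11, a membrane transporter of the bicarbonate transporter family (1.67 against 2.52 CPM, -0.58), Rgs20, a regulator of G protein signalling (-0.18), Kctd1 (-0.13), Lrrc32, which tethers latent TGF-beta (-0.31), and Myod1, a muscle transcription factor read here at 0.322 against 0.535 CPM (-0.73).

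Among markers of cortical layers and of neuron classes, upper-layer and striatal genes had calls and the other lists had none. Of 24 upper-layer genes 3 were lower and 1 higher (16.7% called, against 1.53% of all tested genes), with 9 above 0 and a median of -0.031. Stard8, a GTPase-activating protein, fell to 48.8, 55.2 and 61.1 CPM, against 53.4, 60.9 and 74.2 CPM in non-carriers (-0.16 ± 0.028), and Lamp5, a membrane protein of upper layers and of some interneurons, fell by 0.17. Rasgrf2 fell by 0.11, a call that ended with the plate column term (edgeR adjusted p = 0.085). Its level also fell with the Msh3 label in both arms. It averaged 315, 241 and 169 CPM in carriers on Msh3+/+, Msh3+/- and Msh3-/-, against 331, 275 and 176 CPM in non-carriers. Of 28 genes of striatal projection neurons, 1 was higher and Penk, Arpp21 and Arpp19 were lower (14.3% called), with a median of -0.032. The call of Arpp19 ended with the plate column term (edgeR adjusted p = 0.189). Layer 5 (24 genes, 16 above 0, median 0.032), layer 6 (23 genes, 17 above 0, median 0.055) and interneuron genes (28 genes, 18 above 0, median 0.012) had 0 calls by edgeR. Their smallest adjusted p values were for Pou3f1 in layer 5 (0.135), Ntsr1 in layer 6 (0.0639) and Maf in interneurons (0.0698).

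Neuropeptide genes had 2 lower calls among 25 (8.00%, against 1.53% of all tested genes). Penk, the enkephalin precursor, had 21.4, 25.5 and 33.6 CPM in carriers, against 23, 31.4 and 36.5 CPM in non-carriers (-0.21 ± 0.043), and Cartpt fell by 0.24 with 4.77 against 5.61 CPM, a call that ended with the plate column term (edgeR adjusted p = 0.124) and held in 33 of 48 fits that left out 1 library. Sstr1, a somatostatin receptor, rose by 0.21 ± 0.040 among 23 peptide receptors, where Ntsr2 was the lower call. Glutamate receptor genes (41 tested, median -0.013) had 1 lower call, the NMDA receptor subunit Grin2a (-0.11), and potassium channel genes (55 tested, median -0.022) had 1 call higher, Kcnj4 (0.11), and 2 lower, among them Kcna1 (-0.16). Synaptic vesicle genes (47 tested, median 0.007) had Syngr3 higher (0.10). Genes of RGS and G proteins (29 tested, median 0.015) had Gng4 (0.19) and Gng3 (0.11) higher and Rgs20 and Rgs7 (-0.08) lower. Called shares were 13.8% for RGS and G protein, 8.70% for peptide receptor and 5.45% for potassium channel genes. They were 2.44% for glutamate receptor and 2.13% for synaptic vesicle genes. Ntsr2, Grin2a, Kcnj4, Kcna1, Syngr3, Gng4, Gng3 and Rgs7 were not called with the plate column term. GABA receptor (19), sodium and calcium channel (24), immediate early (32) and cyclic AMP (26) genes had 0 calls by edgeR, with medians of -0.027, -0.016, 0.037 and 0.018. Ntrk3, a neurotrophin receptor, was the only call among 25 neurotrophin genes (-0.14, 4% of the list). Rbfox3, the splicing factor known as NeuN, was the only call among 45 splicing genes (-0.09, 2.22% of the list). Neither held with the plate column term (edgeR adjusted p = 0.248 and 0.124).

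Most members of the ribosomal protein, nuclear respiratory chain, proteasome and glycolysis lists lay above 0, and few passed the test. Of 78 ribosomal protein genes 67 lay above 0, with a median of 0.059 and 4 called higher (5.13%, against 1.53% of all tested genes). The 4 included Rpl32, Rpl13a and Rplp1. Of 74 nuclear genes of the respiratory chain 69 lay above 0, with a median of 0.037 and 1 call (1.35%), Ndufs7 (0.10). Of 43 proteasome genes 37 lay above 0, median 0.030, with 0 calls by edgeR. Glycolysis and citric acid cycle genes (33 tested, 29 above 0, median 0.033) had Aldoc as their 1 call (3.03%), in the lower direction. Of 41 cytoskeleton and transport genes 30 lay above 0, with a median of 0.032. The tubulin genes Tubb3, Tuba1a, Tubb5, Tubb2a and Tuba1b were called higher, by 0.10 to 0.12, which is 12.2% of the list. Tubb3, the neuronal beta-tubulin, had 271, 315 and 355 CPM in carriers, against 256, 289 and 334 CPM in non-carriers. Reads of tubulin and ribosomal protein genes may be shared with near-identical copies and pseudogenes, so the value of a single gene is uncertain.

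With the plate column term the medians were 0.041 for ribosomal protein genes, 0.027 for the respiratory chain and 0.020 for the cytoskeleton list, and of the 10 calls Tubb3 alone stayed (edgeR adjusted p = 0.0469). Rpl32 had edgeR adjusted p = 0.0283 without that term and 0.271 with it. Over all tested genes the median was 0.001 with the term. The 13 mitochondrially encoded genes lay the other way, 12 of them below 0, with a median of -0.085 and 0 calls by edgeR. That median was -0.171 on Msh3+/+, 0.024 on Msh3+/- and -0.088 on Msh3-/-, and 0.005 in females and -0.187 in males. Their summed level ran from 31153 to 51445 CPM in carriers and from 35548 to 56356 CPM in non-carriers. Rplp1 was called in 25 of 48 fits that left out 1 library.

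The remaining lists had at most 3 calls each. Among 42 heat shock and chaperonin genes Cct5 (0.09) and Cct4 (0.09), subunits of the chaperonin that folds actin and tubulin, were higher, and among 37 autophagy genes Map1lc3a (0.11). None of these 3 was called with the plate column term. Fatty acid genes (34 tested, 8.82% called) had Acot7 higher and the acyl-CoA ligases Acsl3 (-0.10) and Acsl6 (-0.08) lower. All 3 were also called with the plate column term. Mitochondrial ribosomal genes (78 tested) had Mrpl33 as their 1 call, near the 1.53% of all tested genes. The p53 and DNA repair genes (31 tested, 3.23% called) had Ccng1 (-0.13), whose call ended with the plate column term (edgeR adjusted p = 0.111). Cholesterol synthesis (31), interferon and MHC (32), mismatch repair (26), clock (25), clustered protocadherin (54), homeobox and Polycomb (14) and huntingtin interactor (24) genes had 0 calls by edgeR, with medians of 0.037, -0.031, 0.001, 0.005, 0.009, -0.015 and -0.020.

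Microglia genes (22 tested, 17 above 0, median 0.020), endothelial and mural genes (24 tested, 5 above 0, median -0.051) and reactive astrocyte genes (17 tested, 7 above 0, median -0.020) had 0 calls by edgeR. Gfap, the astrocyte intermediate filament, had -0.01. Serpina3n, a protease inhibitor that reactive astrocytes secrete, averaged 15.4 CPM in carriers and 9.66 CPM in non-carriers (edgeR adjusted p = 0.106), and 3 carriers stood apart. Q140 M4, Q140 F3 and Q140 Msh3-/- M3 had 55.9, 49.6 and 49.3 CPM, and the next highest of the 48 libraries had 13.1 CPM.

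Genes of tissues that border the cortex moved with single libraries. Prl averaged 0.245 CPM in carriers and 2.42 CPM in non-carriers and Gh 0.0978 against 0.755 CPM, and both were called lower, while Slc4a5, a choroid plexus transporter, was called lower with 0.0890 against 0.340 CPM. WT M2 alone had 34.0 CPM of Prl and Msh3+/- M2 4.87 CPM of Slc4a5. None of the 3 was called with the plate column term, and without the 4 libraries named above Prl had -0.92 and Slc4a5 -0.60, neither called, and Gh -2.50, still called. Without Msh3+/- M2 alone Slc4a5 had -0.67 (edgeR adjusted p = 0.179). The list medians were -0.881 for 11 choroid plexus genes and -1.75 for 4 pituitary genes. The 18 meningeal genes had 1 member above 0 and a median of -0.184, and the 5 blood genes 5 above 0 and a median of 0.571, both with 0 calls by edgeR. The blood median was 1.57 on Msh3+/+, 1.67 on Msh3+/- and -0.710 on Msh3-/-. Their part in the other results was not tested, beyond the 230 calls made without those 4 libraries.

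**Figure D3:**
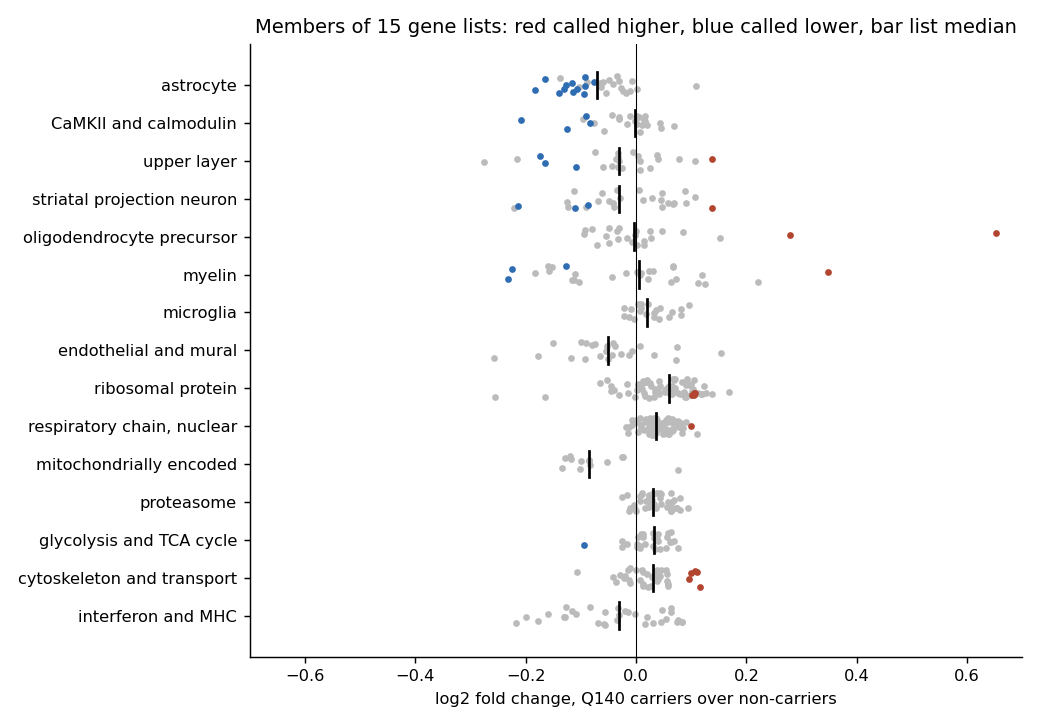
Log2 fold change of carriers over non-carriers for every tested member of 15 gene lists; each point is 1 gene, red points were called higher, blue points lower, and the black bar is the list median. Astrocyte genes are shifted left with 12 blue points, while the ribosomal protein and respiratory chain lists are shifted right with 4 and 1 red points.

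Most calls could be seen in no single pair of genotypes. Within Msh3+/+ 20 genes (0.102%) were called, within Msh3+/- 10 (0.0512%) and within Msh3-/- 4 (0.0205%), and 279 of the 300 pooled calls were called in none of the 3. The pooled calls average these strata, so their directions there are a description. The direction was the same in all 3 for 297 of 300, against 7234 of 19547 tested genes. Signed by the direction of the call, the median size was 0.146 on Msh3+/+, 0.132 on Msh3+/- and 0.113 on Msh3-/-. No gene passed the test for a Q140 effect that differs between Msh3 genotypes. Over both interaction terms 0 genes (0%) were called by edgeR and 681 had an unadjusted p under 0.05, with 0 and 643 by limma-voom, and for the difference between Msh3-/- and Msh3+/+ alone 0 (0%) were called and 626 had one.

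The named genes of smallest interaction p included Enpp6 and Zfp488 of the oligodendrocyte lineage. Enpp6 averaged 3.96, 3.44 and 2.63 CPM in carriers on Msh3+/+, Msh3+/- and Msh3-/-, against 2.003, 2.09 and 2.22 CPM in non-carriers, and its log2 fold changes were 0.96, 0.73 and 0.22. The difference between Msh3-/- and Msh3+/+ was -0.74 ± 0.18, with an unadjusted p of 0.000102 and an adjusted p of 0.772 in the edgeR model fitted across all genes. Zfp488 had 0.49, 0.34 and -0.03 (adjusted p of the difference 0.949) and Anln 0.45, 0.48 and 0.10, and H2-Bl, a histocompatibility gene whose reads may fall on other family members, -0.82, -0.52 and 0.11. The pooled call of H2-Bl ended with the plate column term (edgeR adjusted p = 0.155) and held in 25 of 48 fits that left out 1 library. Capn11, Napepld, Zfp27 and Tesk2 were the other named genes of smallest p over both tests, and none passed. Ddit4l had -0.58, -0.45 and -0.27 and Camk2n1 -0.31, -0.16 and -0.15. For Slc1a2 (-0.21, -0.19 and -0.15) and Glul (-0.17, -0.16 and -0.16) the 3 values lay within the error of each other. A missed threshold does not show that the effect is equal on the 3 Msh3 genotypes.

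**Figure D4:**
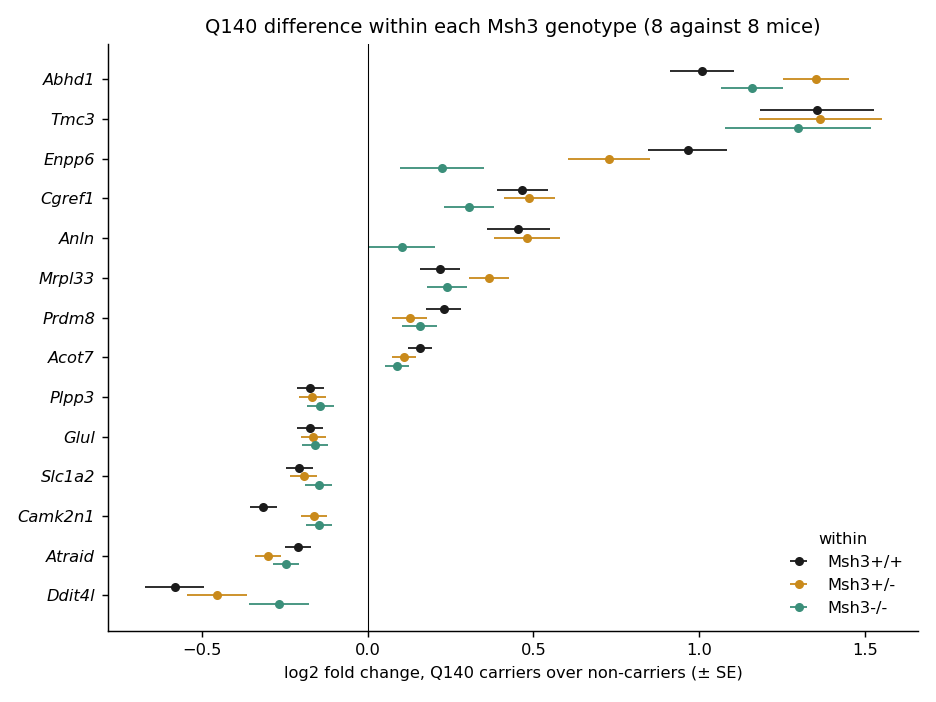
Log2 fold change of carriers over non-carriers within each Msh3 genotype, 8 against 8 mice, for 14 genes; points are estimates of the 6-group model and bars ± SE. Enpp6, Anln and Ddit4l lie nearest 0 on Msh3-/-, whereas Slc1a2, Glul and Plpp3 lie close together on all 3.

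Genes chosen in 32 libraries of 2 Msh3 genotypes were then read in the 16 libraries of the third, with no library in both. Of 26 genes called without Msh3+/+, 26 had the same direction there and 25 of them an unadjusted p under 0.05, against 63.9% and 7.62% of all tested genes. Of 76 called without Msh3+/-, 71 (93.4%) had the same direction and 43 of them a p under 0.05, against 58.1% and 5.49%. Of 161 called without Msh3-/-, 140 (87.0%) had the same direction and 52 (32.3%) of them a p under 0.05, against 58.3% and 4.55%. Outside the Htt window the counts were 21 of 21, 63 of 68 and 133 of 154. The median signed change was 0.168 in the choosing libraries and 0.195 in those left out for Msh3+/+, 0.181 and 0.122 for Msh3+/-, and 0.159 and 0.0834 for Msh3-/-. The sets of genes differ between the 3 readings, so these medians are not an order of the Msh3 genotypes. Neither these fits nor the fold changes within Msh3 genotypes above used a plate column term. On Msh3+/+, column 1 held Q140 F1, F4 and M4 and no WT mouse. Column 3 held WT F2, M1, M2 and M4 and no Q140 mouse. The carry-over therefore does not separate Q140 from plate column, and the part of plate column in it was not tested.

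No gene passed the test of a Q140 effect that differs between the sexes. In females 22 genes (0.113%) were called, 9 higher and 13 lower, in males 24 (0.123%), 9 higher and 15 lower, and for the difference between them edgeR called 0 (0%) with 507 at an unadjusted p under 0.05, and limma-voom 0 with 483. All 300 pooled calls had the same direction in both sexes, against 12531 of 19547 tested genes, and 240 in all 6 combinations of sex and Msh3 genotype, against 1662. The calls were chosen on the same mice, so these counts are a description. The smallest interaction p values belonged to Slc52a3, a riboflavin transporter gene (-0.51 in females and 0.17 in males), Lancl3 (-0.16 and 0.16), Rbm12 (-0.13 and 0.14), Matn4 (-0.24 and 0.04) and Nckap5 (0.21 and -0.16), none of them at an edgeR adjusted p under 0.05.

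The comparison was also read within plate columns. Of 300 called genes, 149 had the same direction in all 6 columns, against 871 of 19547 tested genes, a description only, since the calls were chosen on the same libraries. Camk2n1 differed by -0.18, -0.28, -0.11, -0.26, -0.17 and -0.17 in columns 1 to 6 (mean log2 CPM of carriers minus that of non-carriers) and Glul by -0.14, -0.23, -0.19, -0.22, -0.13 and -0.14. Enpp6 differed by 0.65, 0.78, 0.39, 0.76, 0.58 and 0.31. Rpl32 had -0.12 in column 1 and -0.04 in column 3 but 0.07, 0.12, 0.17 and 0.12 in columns 2, 4, 5 and 6, and Tubb5 and Ndufs7 were likewise below 0 in columns 1 and 3 and above 0 in the other 4. Columns 1 and 3 are the most uneven ones, with 1 non-carrier and 2 carriers, so their values rest on few mice. Without column 1, 130 genes were called, 57 higher and 73 lower. What plate column stands for besides a position is not stated, and its part in the 214 calls that end with it was not tested further.

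**Figure D5:**
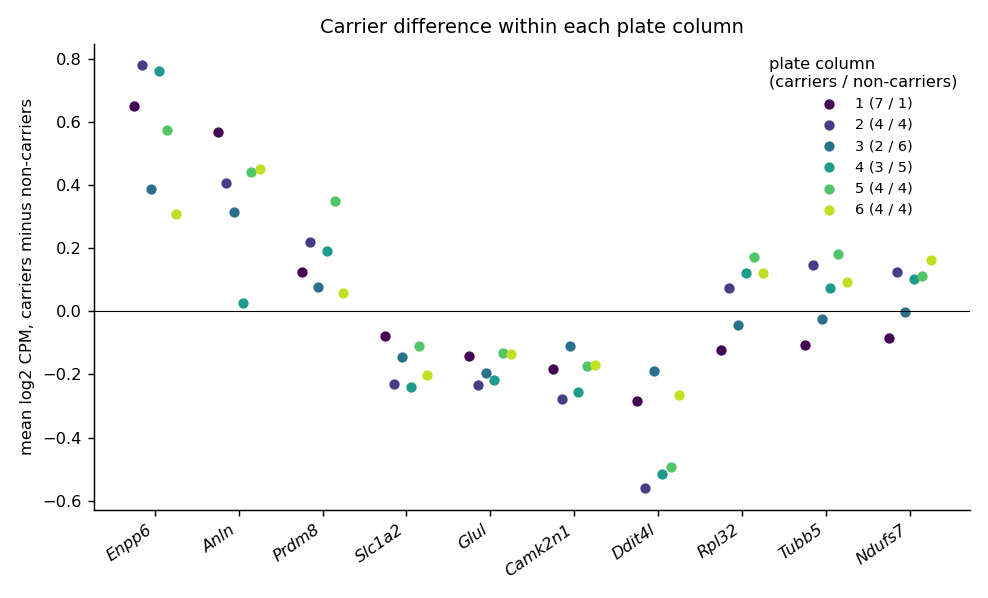
Mean log2 CPM of carriers minus that of non-carriers within each of the 6 plate columns for 10 genes; colour gives the column, with its numbers of carriers and non-carriers in the legend. Enpp6, Anln and Prdm8 stay above 0 and Slc1a2, Glul, Camk2n1 and Ddit4l below 0 in all 6 columns, whereas Rpl32, Tubb5 and Ndufs7 change sign in columns 1 and 3.

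Calls were also set against transcript length, with no test. The median exonic length was 3470 bases for genes called higher and 4894 bases for genes called lower, against 3690 bases over all tested genes. Among the 1947 genes with the longest exons, 5 were called higher and 33 lower, and among the 1947 with the shortest, 12 higher and 3 lower, while the second-longest of 10 bins had 14 higher and 15 lower. The median log2 fold change was -0.011 in the longest bin and 0.005 in the shortest (-0.022 and 0.043 on Msh3+/-, but 0.000 and -0.008 on Msh3-/-), and across 19468 genes, which are not independent replicates, the Spearman correlation of log2 fold change with length was -0.052 (-0.056 with the plate column term), given as a description. Ntrk3, Grin2a and Arpp21 were long genes among the lower calls, at 30170, 17933 and 17428 bases, and Rplp1 and Rpl32 short ones among the higher calls, at 499 and 963 bases. RNA quality was not tested.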

How the data were processed

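RNA of 48 mouse cortices was sequenced from stranded TruSeq libraries, per the labels' protocols, and the authors deposited 1 table of raw read counts per gene, which holds the unnormalized counts of every library. A table of FPKM values that the authors also deposited was not used here. STAR 2.7.5c, SAMtools 1.10, HTSeq 0.12.3 and the GRCm38 build are named in the submitters' processing notes without their roles. The annotation release and the strand setting are not given in the sources used here, so a gene and its antisense partner may share reads. An extraction text among the labels speaks of another region and age than the other labels, which give cortex at 12 months, and these were followed.

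Genes kept by edgeR's filterByExpr (a minimum count of 10 and a total of 15) numbered 19547 of the 48795 in the table, and 14658 of the 48795 had 0 counts in all libraries. The symbols of 27 genes had been turned into dates. Counts were scaled by TMM and fitted in R 4.3.3 with edgeR 4.0.16 (robust quasi-likelihood) on Q140, Msh3 genotype and sex, which left 43 degrees of freedom, and p-values were adjusted by Benjamini-Hochberg over all tested genes at 0.05. A 6-group fit gave the values within Msh3 genotypes and their interaction, and a Q140-by-sex term those of the sexes. Errors are SE of the log2 fold change unless marked SD. limma 3.58.1 (voom) and DESeq2 1.42.0 were alternatives, beside other scalings, filters, plate terms, blocks and left-out libraries. Coordinates and exonic lengths came from GENCODE M21 (GRCm38), with 79 tested genes unmatched. The pipeline was tested on simulated data.

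The text names Htt and Msh3, the 20 genes of smallest adjusted p in each direction that averaged 20 or more counts in their higher arm, up to 5 called members of each of 47 lists (or the 2 of smallest p), and the 5 genes of smallest p of each interaction. Gene models without a name were counted only, and some genes of the rule are not reported here. Other members of a list are given as background to it and were chosen after their values were seen. The comparison and the lists were chosen with earlier results of these data known. The mice are separate animals by their labels. Depth was 37.7 to 68.3 M counts a library.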

Additional observations from a re-analysis of the deposited data

Results flagged for a closer look

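In 66 groups of 8 mice, the library total and 10 genes in each of the 6 genotypes, 3 had 1 mouse far from the other 7, where chance gives about 1 in 20 groups. Acot7 had 166 CPM in Q140 Msh3+/- F1, and the nearest of its group had 189 CPM. Prdm8 had 37.5 CPM in Q140 Msh3-/- F3, and the nearest had 44.7 CPM. Camk2n1 had 2651 CPM in WT M4, and the nearest had 2438 CPM. Q140 Msh3+/- F1 is also the library without which most genes were called.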

How the results depend on the processing

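Of the 300 calls, 49 (45 outside the Htt window, 16 of the 49 higher and 33 lower) held in all 15 alternatives that kept both sexes and all Msh3 genotypes. Without any 1 library 186 held, and 83 held both with the plate column term and without any 1 library. A gene that an alternative left without an adjusted p counted there as not held. Tmc3, for one, was called in 13 of the 15, which is every alternative that gave it an adjusted p. The number of calls was 288 in a 6-group model, 249 without the sex term, 304 with RLE size factors, 314 with upper-quartile scaling and 298 with limma-voom. It was 218 without a filter, 326 with a filter at 1 CPM in 24 libraries and 211 with a plate row term. Of these 211 calls, 169 were among the 300. The number moved to 498 with DESeq2, where 4175 adjusted p were not given, to 86 with the plate column term and to 130 without plate column 1. With column and row terms it was 86, of which 75 were among the 300. With fewer mice it was 15 in females, 35 in males, 21 in Msh3+/+, 10 in Msh3+/- and 2 in Msh3-/- libraries fitted alone. Without each library in turn it ran from 217 to 510. The cause of the differences was not tested, other than that smaller fits use fewer mice. In Msh3-/- libraries alone Zfp488 had -0.02686 and H2-Bl 0.1133, opposite to the pooled direction. Of 84 called genes named, 36 held in all 15 alternatives, 70 without any 1 library, and 35 ended with the plate column term. Of 940 list medians under an alternative, 11 moved by more than the spread and 85 changed sign, most of them medians near 0. The blood gene median was -0.7216 in Msh3-/- libraries, the pituitary median 0.003307 with the filter at 1 CPM, the protocadherin median -0.07699 in Msh3+/- libraries and the huntingtin interactor median 0.005668 with column and row terms.

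Libraries with the same replicate number had deviations correlated at -0.685 to 0.463 (median 0.0124, 120 pairs), against a median of -0.0336 over other pairs, so the numbers do not pair the mice. With the replicate block 341 genes were called, and 325 with the name prefix as a random block. The planned rule on summed choroid plexus and pituitary levels removed 0 libraries and gave no value, so the rule behind the 230 calls was added after the data were seen. Genes under about 1 CPM had few reads, and a missed call among them does not show an absent difference.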
